A study of Mus musculus with 8 samples.

Results

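The miR-129 family of the mouse consists of 2 hairpins on different chromosomes, Mir129-1 and Mir129-2, and was represented by 3 mature miRNAs in the deposited counts. These members, mmu-miR-129-5p, mmu-miR-129-1-3p and mmu-miR-129-2-3p (written without the species prefix below), were taken by name and are 3 of the 1966 names in the table. The family was chosen by its counts in the same comparison of interleukin-1β with vehicle, so the difference of its members between the groups is given as a description, with no p-value. Small RNA was sequenced from primary chondrocytes of the articular cartilage, isolated from the femoral heads of wild-type mice aged 3 weeks according to the methods of the study. The cells were cultured for 24 h with vehicle (4 libraries) or with IL-1β, a proinflammatory cytokine, at 1 ng/ml (4 libraries). The labels number the libraries 1 to 4 in each group and do not say whether they came from separate animals or cultures, so that the spread between libraries, and every p-value resting on it, may be technical.

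A miRNA hairpin is cut by Drosha and Dicer into a short duplex whose strands, the 5p and the 3p arm, can each be loaded into an Argonaute protein. The loaded strand finds messenger RNAs mainly through its seed, bases 2 to 8 from its 5′ end. When a miRNA is made from several hairpins, an arm that is the same in all of them receives 1 name, whereas arms that differ are numbered by locus. The miR-129 family is best known from the brain, where both of its arms are abundant, and from tumors, in which the CpG island of the Mir129-2 locus is often methylated.

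The sequences show which counts can be assigned to a locus. RefSeq (GRCm38.p6, the mm10 build used for the counts) held mature sequences for 2 of the 3 members, with the seed in capitals.
mmu-miR-129-5p: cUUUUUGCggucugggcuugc
mmu-miR-129-2-3p: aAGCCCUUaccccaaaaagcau
For miR-129-1-3p only the hairpin is given. The hairpins are shown with the arms in capitals, first the 5p and then the 3p arm. In Mir129-1 the second stretch of capitals is the best ungapped match to miR-129-2-3p.
Mir129-1: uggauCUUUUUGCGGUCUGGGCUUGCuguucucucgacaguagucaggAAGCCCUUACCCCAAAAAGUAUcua
Mir129-2: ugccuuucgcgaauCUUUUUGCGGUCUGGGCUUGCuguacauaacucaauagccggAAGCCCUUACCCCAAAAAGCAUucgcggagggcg

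The 5p arm was identical in both hairpins, 21 nt long, and lay within an identical stretch of 26 nt that reached 2 bases before and 3 bases after it. No read of miR-129-5p can thus be assigned to a locus by its own sequence. The 3p arms differed by a single substitution over 22 nt, C20U, with positions counted from the 5′ end of miR-129-2-3p, its base first and that of the Mir129-1 hairpin last. The 19 bases before this position and the 2 bases after it were identical, and so was the seed. Only a read that covers base 20 can separate the loci. Each of the seeds, UUUUUGC for the 5p and AGCCCUU for the 3p arm, belonged to 1 of the 1679 mature names in the RefSeq table, so no other named mouse miRNA there shared a seed with the family.

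**Figure D1:**
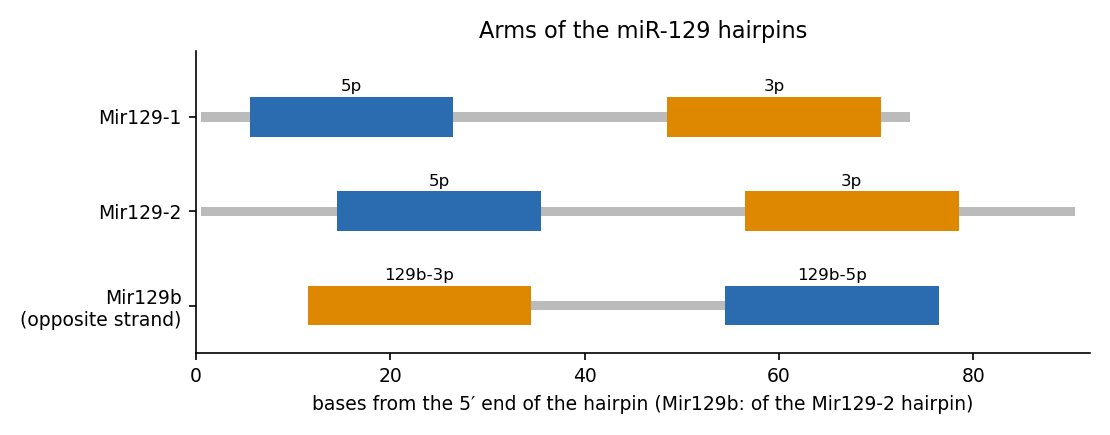
Positions of the mature arms in the hairpins of the miR-129 family, in bases from the 5′ end of each hairpin (gray bars). In Mir129-1 (73 nt) the 5p arm spans bases 6 to 26 and the 3p arm bases 49 to 70, in Mir129-2 (90 nt) they span 15 to 35 and 57 to 78, and Mir129b on the opposite strand covers bases 12 to 76 of Mir129-2 with its 5p arm over the 3p arm of Mir129-2.

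Mir129-2 lies on the minus strand of chromosome 2 (chr2:94241364-94241453), in an intron of the long noncoding RNA gene Mir670hg (chr2:94160636-94264918, minus strand; GENCODE M21). Its arms map to chr2:94241419-94241439 for miR-129-5p and chr2:94241376-94241397 for miR-129-2-3p. Mir129-1 lies on the plus strand of chromosome 6 (chr6:29022619-29022691), in an exon (chr6:29021734-29028922) of the long noncoding RNA gene Gm3294, with miR-129-5p at chr6:29022624-29022644. Another hairpin, Mir129b (chr2:94241378-94241442), is annotated on the plus strand across Mir129-2 and overlaps it by 65 nt. Whether strand was used in counting was not stated, so reads of Mir129-2 and Mir129b from these positions may not be separable where the counting ignored strand.

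The 8 libraries held 616475 to 1568367 counts, and 1 count therefore amounted to 0.638 to 1.62 CPM, the count scaled to a library total of 1000000. Of the 1966 names, 1003 had counts and 564 were tested, being above 1 CPM in at least 4 libraries. Replicate 4 of the IL-1β group stood apart, its counts differing from those of the other IL-1β libraries by a chi-square of 81.0 to 129.5 per degree of freedom, against 6.41 to 26.4 for the other 9 pairs within a group. All 4 names on the cartilage list, the arms of miR-140 and miR-455, were detected, with a summed level of 153547 to 168966 normalized CPM in the vehicle and 132602 to 155815 in the IL-1β libraries.

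miR-129-2-3p, the 3p arm of the chromosome 2 locus, accounted for nearly all counts of the family. It was counted 151, 260, 233 and 108 times in vehicle replicates 1 to 4, and 159, 351, 207 and 207 times in IL-1β replicates 1 to 4. Scaled for library size (normalized CPM, using TMM-scaled totals), these were 160, 174, 146 and 168 with vehicle and 254, 296, 302 and 259 with IL-1β. All 4 IL-1β libraries were above all 4 vehicle libraries, and the lowest IL-1β library exceeded the highest vehicle library 1.47-fold. The vehicle group averaged 162 ± 12.2 normalized CPM and the IL-1β group 278 ± 24.6 (SD, n = 4 each), a ratio of 1.72. Within each group the highest library exceeded the lowest 1.19-fold. In cultures sequenced in bulk, more cells that contain a miRNA and more of it per cell cannot be told apart.

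The fitted log2 fold change of miR-129-2-3p was 0.79 (SE 0.106; edgeR), and the pooled SD of its libraries around their group means was 0.12 on the same scale. A miRNA was called when its adjusted p was below 0.05 and its absolute log2 fold change above 0.3. The fit across all miRNAs included 2 of the 3 members, and 1, miR-129-2-3p, was past these limits, which is no evidence about it, since the same contrast chose the family. Among all tested miRNAs 11 of 564 were called (1.95%), of which 8 were higher (1.42% of 564) and 3 lower (0.532% of 564) with IL-1β. This number was 6 without vehicle replicate 4, 7 without vehicle replicate 2 or IL-1β replicate 3, 19 without IL-1β replicate 4, 19 with a replicate block and 29 with 1 factor of unwanted variation. The 4 IL-1β libraries lay above the 4 vehicle libraries in 26 of the 564 (4.61%). Nothing about the members is read from these counts. Without IL-1β replicate 4, the library that stood apart, the log2 fold change of miR-129-2-3p was 0.83 (SE 0.0999).

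The spread between libraries was then set beside the error of counting. For miR-129-2-3p, the SD between vehicle libraries was 12.2 normalized CPM, beside 12.6 from Poisson counting at these depths. Between IL-1β libraries it was 24.6 beside 18.9, or 1.30 times the counting error. The 95% exact Poisson intervals of the IL-1β libraries began at 216 normalized CPM or above, and those of the vehicle libraries ended at 203 or below. These intervals cover counting error only. Relative to the library totals without TMM scaling, miR-129-2-3p was at 162, 172, 149 and 170 CPM with vehicle and 258, 306, 298 and 242 CPM with IL-1β. The groups did not overlap on this scale either, with the lowest IL-1β library 1.41-fold above the highest vehicle library.

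**Figure D2:**
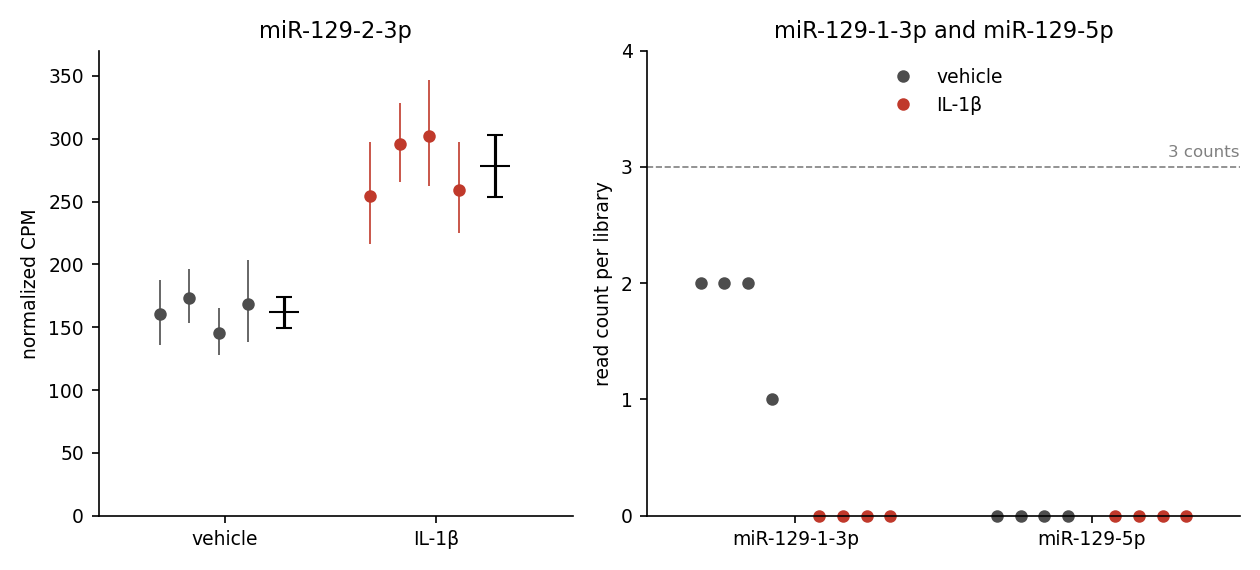
Left, normalized CPM of miR-129-2-3p in each library (points, with 95% Poisson intervals) and group mean ± SD (black); right, read counts of miR-129-1-3p and miR-129-5p in each library. The 4 IL-1β libraries of miR-129-2-3p sit between 254 and 302, above the vehicle libraries at 146 to 174, whereas miR-129-1-3p has 1 or 2 counts in each vehicle library and 0 with IL-1β, and miR-129-5p is at 0 in all 8.

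miR-129-2-3p was a miRNA of moderate abundance, with a mean of 209.5 counts per library. It was the 132nd most abundant name with vehicle and the 111th with IL-1β, by mean normalized CPM. Of the 564 tested miRNAs, 45 had a larger fitted log2 fold change than miR-129-2-3p, but their median was only 2.0 counts per library. Among them 1 averaged 50 counts or more, miR-146a-5p, a miRNA induced by NF-κB. It was at 74.8 to 98.1 normalized CPM in the vehicle libraries and at 203, 201, 269 and 821 in IL-1β replicates 1 to 4, with no overlap. Its log2 fold change was 2.09 (edgeR adjusted p = 0.184, not called), and without IL-1β replicate 4, the library that stood apart, it was 1.33 and called (edgeR adjusted p = 1.02e-08). miR-146a-5p was also called by DESeq2 (adjusted p = 0.00188) and with 1 factor of unwanted variation. For scale, the median absolute log2 fold change over the 195 tested miRNAs averaging 50 counts or more was 0.118.

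**Figure D3:**
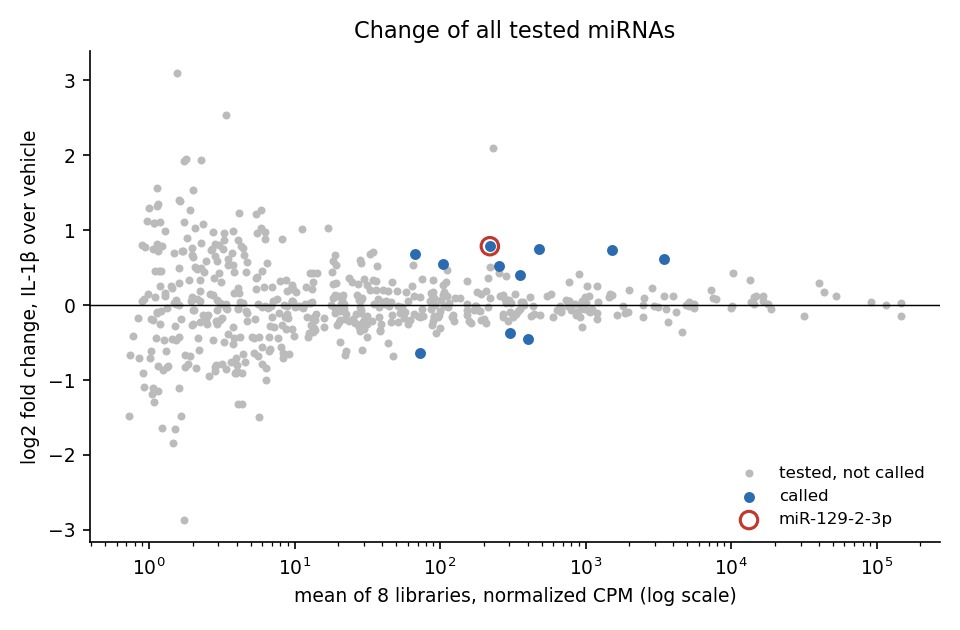
Log2 fold change of each tested miRNA (IL-1β over vehicle, edgeR) against its mean abundance over the 8 libraries in normalized CPM (log axis), with called miRNAs in blue and miR-129-2-3p ringed. miR-129-1-3p is left out, because a fitted change against libraries that are all at 0 has no fixed size; miR-129-2-3p lies at 0.79, where most miRNAs of like abundance lie close to 0.

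miR-129-1-3p, the corresponding arm of the chromosome 6 locus, was hardly detected. It had 2, 2, 2 and 1 counts in vehicle replicates 1 to 4 and 0 counts in each IL-1β library. It passed the filter on low values only through its vehicle libraries. No library reached 3 counts, the number compatible with an observed 0, so no fold change is given for miR-129-1-3p. Of the counts of both 3p arms, it held 7 of 759 with vehicle (0.922%, 95% exact Clopper-Pearson interval 0.372 to 1.89%) and 0 of 924 with IL-1β (same interval, 0 to 0.398%). No difference or likeness of the shares is read from these counts.

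How reads that fit both loci were treated was not stated, and the 3p arms differ at base 20 alone, so the split between miR-129-1-3p and miR-129-2-3p is uncertain. When their counts were summed, the 3p arms of the family averaged 163 ± 12.2 normalized CPM in the vehicle group and 278 ± 24.6 in the IL-1β group (SD, n = 4 each). The ratio of these means was 1.70 and the log2 fold change 0.77 (SE 0.106).

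miR-129-5p, the arm shared by both loci and the better studied member, was listed at 0 in all 8 libraries. Against a floor of 3 counts per library, the counts of miR-129-2-3p were at least 36.0- to 117-fold higher than those of miR-129-5p, depending on the library. Against 3 counts over all 8 libraries, they were at least 559-fold higher. These are bounds on the deposited counts and not on abundance, because the 0 of miR-129-5p may come from how reads that align to both loci were counted, which was not stated and was not tested. Counts of different arms are not proportional to their molar amounts, because library preparation favors some sequences over others. The table lists a length of 42 nt for miR-129-5p, equal to 2 × 21 nt, the length of the arm at its 2 loci added together. Of the 25 shared names with 2 loci in RefSeq, 10, miR-129-5p among them, are listed at more than 30 nt and 15 at a single arm length, so the listed lengths do not show 1 treatment for all of them.

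The whole family thus amounted to 1683 counts, 0.0211% of all counts, of which miR-129-2-3p made up 99.6%. Neither the ratio of the 3p to the 5p arm nor that of the loci could be followed between the groups, as miR-129-5p was at 0 and miR-129-1-3p below 3 counts throughout.

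To place the missing 5p arm, the other families with the same layout were examined. By their names 28 families, miR-129 included, had an arm shared by 2 loci and opposite arms numbered by locus. The shared arm was at 0 in 4 of the 28, miR-129, miR-219a, miR-7a and miR-1a. Locus-specific arms were detected in 3 of these, with 1683 counts for miR-129, 112 for miR-219a and 5 for miR-7a. Among the 27 families with any counts, locus-specific arms exceeded the shared arm in 6 and were fewer in 21, and they made up a median of 3.56% of the counts of a family. Only 3 families had more than 1000 locus-specific counts. In the other two the shared arm was far more abundant, with 310543 counts beside 11457 for miR-125b and 718075 beside 3760 for miR-181a. Values for miR-219a, miR-7a and miR-1a are given after they were seen.

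**Figure D4:**
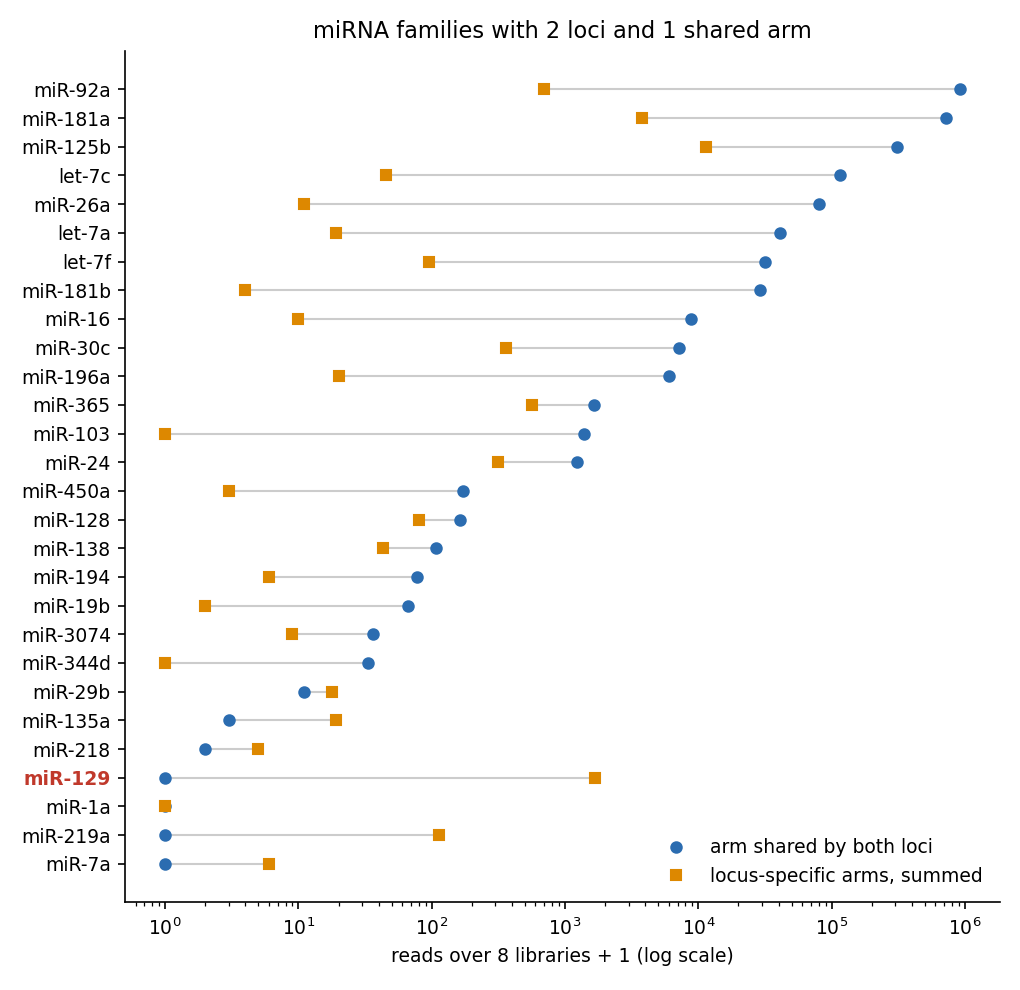
Counts over all 8 libraries, plus 1, on a log axis, for the 28 families with 2 loci and a shared arm; circles are the shared arm, squares the sum of the locus-specific arms. miR-129 has 1683 locus-specific counts and none for the shared arm, whereas miR-92a, at the top, has 690 and 918339.

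Families with hairpins about as alike differed widely in their shared arm. In the 7 other families with an identical stretch of 25 to 27 nt around the shared arm, beside 26 nt in miR-129, that arm had 10 counts (miR-29b) to 79990 counts (miR-26a). Over the 23 other families for which a stretch was found, of 22 to 30 nt, it had 0 to 918339 counts, with 0 in miR-7a at 24 nt and miR-219a at 22 nt and the most in miR-92a, also at 22 nt. The part of read assignment in the 0 of miR-129-5p was not tested. The shared arm of miR-92a is also listed at 42 nt, as is miR-129-5p. Of the 29 names listed at more than 30 nt, 13 (44.8%) were at 0, and of the other 1937 names 950 (49.0%) were. Dominance of 1 locus was also found elsewhere. The major locus-specific arm held 99.9% of the locus-specific counts in miR-92a and 82.0% in miR-125b, beside 99.6% in miR-129, but 57.2% in miR-181a.

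Hairpins whose arms each have a single locus in RefSeq were also examined for an arm at 0 beside an abundant one. Of 600 such hairpins with both arms listed, 79 had an arm with at least 1000 counts. In 5 of the 79 the other arm was at 0, and in 10 it was below 3 counts. The other arm had a median of 48 counts over the 79.

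The locus-specific arms of these families were then compared between the groups. Of the 22 tested in the other 27 families 1 was called, beside 1.95% of all tested miRNAs, with a median log2 fold change of 0.13, beside 0.01 over all 564 tested miRNAs. Of the 22 tested shared arms 0 were called by edgeR and 0 by DESeq2, with a median of 0.03. An unadjusted p below 0.05 (edgeR) was found for 1 of these 22 and for 3 of the 22 locus-specific arms. Over all 564 tested miRNAs it was found for 63. The called arm was miR-365-2-5p, which rose from 51.2 ± 4.12 to 83.8 ± 17.3 normalized CPM (SD, n = 4 each; log2 fold change 0.68, SE 0.160, edgeR adjusted p = 0.0195). This call was lost without vehicle replicate 3 (edgeR adjusted p = 0.0616), vehicle replicate 4 (0.0787) or IL-1β replicate 3 (0.0516), with log2 fold changes between 0.62 and 0.67. Without IL-1β replicate 4, the library that stood apart, the log2 fold change fell to 0.52 and the arm was called (edgeR adjusted p = 0.0409). As in miR-129, 1 locus held most of the locus-specific counts of the family, with 515 counts of miR-365-2-5p beside 54 of miR-365-1-5p. In contrast to miR-129, the shared arm was detected. miR-365-3p had 1638 counts, its log2 fold change was 0.19 (SE 0.125, edgeR adjusted p = 0.668), and the difference between these arms was not tested. In the 6 families with the most abundant shared arm, miR-92a, miR-181a, miR-125b, let-7c, miR-26a and let-7a, the log2 fold change of that arm was between -0.02 and 0.30, and none was called.

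Other miRNAs near the hairpins were compared next. Of 15 neighbors, 13 were in the table, 7 were tested and 0 were called by edgeR, beside 1.95% of all tested miRNAs. DESeq2 also called 0 of them. An unadjusted p below 0.05 (edgeR) was found for 1 of the 7, beside 63 of all 564 tested miRNAs. The 7 had log2 fold changes from -1.31 (miR-335-3p, 37 counts) to 1.96 (miR-29b-1-5p, 12 counts) and a median of -0.06. Mir670, 19.8 kb from Mir129-2 in the same host transcript Mir670hg, yielded 1 count of miR-670-3p and 0 of miR-670-5p over all libraries, so the host gave no second readout of the chromosome 2 locus. On chromosome 6 the neighbors lay 1143 to 2040 kb from Mir129-1. For the 2 most abundant of them, the log2 fold change was -0.06 for miR-182-5p (SE 0.101, edgeR adjusted p = 0.871), and for miR-29a-3p, which targets collagen transcripts, it was 0.06 (edgeR adjusted p = 0.871).

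Mir129b, on the strand opposite Mir129-2, contributed little. miR-129b-5p overlaps miR-129-2-3p by 20 nt on the other strand and had 5 counts in all, 3 in the vehicle and 2 in the IL-1β libraries. miR-129b-3p, which overlaps miR-129-5p by 20 nt, had 0 counts. Both names were added after their values were seen. They are shown because reads counted without regard to strand could fall to either hairpin, with the seed in capitals.
mmu-miR-129b-5p: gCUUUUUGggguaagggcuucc
mmu-miR-129b-3p: cAAGCCCAgaccgcaaaaagauu
The sense and antisense hairpins have like 5′ arms, as miR-129-5p and miR-129b-5p match at 17 of 21 positions without gaps.

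Because miR-129 is best known from neurons, other brain-enriched miRNAs were followed alongside it. Of 15 such names 10 had counts and 5 were tested, miR-128-3p, miR-138-5p, miR-132-3p, miR-212-3p and miR-383-5p. Their log2 fold changes were between -0.22 and 0.03, with a median of -0.01, and miR-132-3p, the most abundant, was at 106 ± 13.6 normalized CPM in the vehicle and 106 ± 17.8 in the IL-1β group (SD, n = 4 each). Of the 5 tested, 0 were called by edgeR, beside 1.95% of all tested miRNAs, and 0 by DESeq2. An unadjusted p below 0.05 (edgeR) was found for 0 of the 5, beside 63 of all 564 tested miRNAs. The neuronal marker list had 3 of 6 names at 0, miR-124-3p, miR-9-3p and miR-219a-5p, and it summed to at most 2.67 normalized CPM in any vehicle and 1.46 in any IL-1β library. miR-219a-5p is itself an arm shared by 2 loci, and the locus-specific miR-219a-1-3p had 109 counts, at 14.6 ± 2.75 normalized CPM in the vehicle and 12.5 ± 6.06 in the IL-1β group (SD, n = 4 each), with a log2 fold change of -0.31, not called.

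Markers of other cell types were low. Haematopoietic miRNAs, 2 of 6 detected, summed to 43.5 to 62.5 normalized CPM with vehicle and 25.6 to 45.5 with IL-1β. Epithelial miRNAs, 4 of 6 detected, summed to 0 to 1.56 with vehicle and 1.6 to 10.2 with IL-1β. These epithelial sums were higher with IL-1β, as was miR-129-2-3p, but rest on 20 counts in all. The haematopoietic sums ran lower with IL-1β, with overlap between the groups. The part of either cell type in the difference of miR-129-2-3p was not tested. The neuroendocrine list had 1 of 2 names detected, at 1.56 to 11.7 with vehicle and 3.20 to 10.2 with IL-1β. The endothelial list had 1 of 2 detected, with 8 counts in all. The 3 muscle markers and the liver marker miR-122-5p were at 0.

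Finally, the miRNAs whose profile over the 8 libraries was most like that of miR-129-2-3p were listed. Likeness was the mean absolute difference between log2 normalized CPM values, each centered on its own mean, over 194 other miRNAs averaging 50 counts or more. The 5 nearest were miR-222-3p at 0.109, miR-210-5p at 0.126, miR-6944-3p at 0.182, miR-21a-5p at 0.183 and miR-365-2-5p at 0.189, against a median of 0.396. The log2 fold changes of these 5 were between 0.55 and 0.75 and that of miR-129-2-3p was 0.79. The measure covers both groups and so includes the difference between them on which the family was chosen, and near profiles therefore have like fold changes by construction. miR-222-3p is known as a regulator of the cell cycle and miR-210-5p comes from a hairpin induced by hypoxia.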

How the data were processed

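Per the labels, small RNA was sequenced from chondrocytes with vehicle or IL-1β (4 libraries each). The authors trimmed reads with cutadapt, aligned them with STAR (version 2.4.2a in the submitters' processing notes, another in the methods) to mm10 and counted them with featureCounts. The deposited values are raw counts per mature miRNA, beside a length in nt per name. The methods name GENCODE for the alignment. The annotation behind the mature names, the use of strand and the counting of reads with several alignments are not given in the sources used here. STAR was designed for longer reads, and ligation favors some sequences, both of which can move counts.

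Counts were fitted with edgeR 4.0.16 (R 4.3.3; robust quasi-likelihood, two-sided, TMM scaling, group only) over 564 miRNAs above 1 CPM in at least 4 of 8 libraries. Calls required a Benjamini-Hochberg adjusted p below 0.05 over all tested and an absolute log2 fold change above 0.3. The SE was the fold change divided by the square root of F. The fit was also run on counts simulated from its own estimates, with no library that stood apart, which does not test the calls made here.

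The members, lists and tests were chosen with earlier results of these data known. Named were the members, their neighbors where tested, the 6 families with the most abundant shared arm, the 5 nearest profiles and miRNAs sharing a seed; other names were chosen after their values were seen. Sequences and the positions of hairpins and arms came from RefSeq, in which 1675 of the 1966 names were found. The genes and exons that overlap the hairpins came from GENCODE M21. Alternatives were other scaling (median-of-ratios, library totals), filters (none, mean of at least 10 counts), DESeq2 1.42.0, a replicate block, 1 factor of unwanted variation and leaving out each library. Intervals and the floor of 3 counts cover counting error only.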

Additional observations from a re-analysis of the deposited data

Results flagged for a closer look

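The tested members, neighbors, families with 2 loci, brain-enriched miRNAs, nearest profiles and miR-146a-5p (60 names, each in both groups, 120 groups of 4 libraries) were examined for a library far from the other 3. This held for 7 groups, and chance sets apart about 1 group in 20. Neither miR-129-2-3p nor miR-129-1-3p was among them. Of the 7, 5 were IL-1β replicate 4, the library that stood apart as a whole. There miR-125b-5p was at 58673 normalized CPM, beside 37476 to 41063 in the other IL-1β libraries, and let-7a-5p at 5853, beside 4930 to 4999. let-7f-5p was at 5068 in the same library, beside 3762 to 3916, miR-24-3p at 182, beside 136 to 142, and miR-146a-5p at 821, beside 201 to 269. In IL-1β replicate 1, miR-128-1-5p was at 11.2, beside 5.85 to 6.74 in the others. In vehicle replicate 4, miR-24-2-5p was at 24.9, beside 40.0 to 40.3 in the others.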

How the results depend on the processing

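Under all 16 alternatives the log2 fold change of miR-129-2-3p stayed within 1 SD of the reported 0.79, between 0.72 and 0.83. The summed 3p arms ranged from 0.71 to 0.81. The number of called miRNAs, 11 as reported, was 19 with a replicate block, 29 with 1 factor of unwanted variation, and 6 to 19 when libraries were left out in turn (7 without vehicle replicate 2, 6 without vehicle replicate 4, 7 without IL-1β replicate 3, 19 without IL-1β replicate 4); the cause was not tested. The called arm of the families with 2 loci, 1 as reported, was not called without vehicle replicate 3, vehicle replicate 4 or IL-1β replicate 3 (range 0 to 1). The neighbors and the brain-enriched miRNAs had 0 calls under all 15.

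Libraries sharing a replicate number showed no common deviation, with correlations of 0.17, -0.34, 0.10 and -0.18 over 195 miRNAs. Pairs with different numbers ranged from -0.32 to 0.25. Whether libraries of 1 number shared an animal, a culture or a batch cannot be told from these values. With the replicate number as a block the log2 fold change of miR-129-2-3p was 0.79 (SE 0.120).

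The planned ratios of the 3p to the 5p arms and of the loci, and fold changes of miR-129-5p and miR-129-1-3p, could not give a value, since these names were at 0 or below 3 counts in every library. miR-129-1-3p had 0 to 2 counts per library and miR-129-5p had 0. The parts of depth and of the counting of reads that fit both loci in these values were not tested.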
